A study of Mus musculus with 4 samples.

Results

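Kit, Rora, Gata3, Ahr, Il1rl1, Il17rb, Il23r, Il22 and Areg are genes by which group 2 and group 3 innate lymphoid cells (ILC2s and ILC3s) are usually recognised, and they were read here in libraries of group 1 cells (ILC1s). They were matched by symbol in the deposited table, where each of the 9 had 1 gene entry among 40481. The libraries came from mouse CD49a+ ILC1s, tissue-resident relatives of natural killer cells. Controls were homozygous for a floxed Inpp4b allele (Inpp4b flox/flox, n = 2 libraries, numbered 1 and 2). The libraries labelled knockout carried the same floxed alleles and Ncr1-iCre (n = 2 libraries, numbered 3 and 4). Ncr1-iCre is a Cre driver named after Ncr1, the gene of the receptor NKp46, and its construction is not given. The label of the controls names no Cre, so effects of Cre and of Inpp4b loss cannot be told apart, also for Ncr1. Liver is given as the tissue for control library 1 and cell type alone for the others, and the sources used here do not give age, sex or any pooling of animals. No label states that each library had its own animal, so the p-values reflect spread among these 4 samples and this spread may be technical.

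The helper ILC groups share a need for the factors GATA3 and ID2, and then part ways. ILC2s depend on RORα and high GATA3, answer interleukin-33 and interleukin-25, and make type 2 cytokines and amphiregulin, whereas ILC3s rely on the aryl hydrocarbon receptor, answer interleukin-23 and make interleukin-22. ILC1s depend on T-bet and make interferon-gamma, and the question here is how much of the helper programme, such as Kit and Rora, their RNA still holds.

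The libraries held 42380840 to 54878210 counts, so that 3 counts, taken as the floor of detection, correspond to 0.0547 to 0.0708 CPM. The defining ILC1 genes were present, with Itga1 (CD49a) at 178.8 to 217.4 CPM and Tbx21 (T-bet) at 39.4 to 57.0 CPM in the 4 libraries. Ncr1 (NKp46) was at 1672 and 1771 CPM in the controls, against 1201 and 1076 CPM in the pair labelled knockout (log2 fold change -0.60 with SE 0.14, adjusted p = 0.28 by edgeR, DESeq2 adjusted p = 0.0297). Eomes, a factor of conventional natural killer cells, was at 0.867 to 3.73 CPM. CPM stands for counts relative to the library total after TMM scaling, a trimmed-mean correction for composition. Inpp4b itself was at 78.7 and 106.5 CPM in the controls, against 142.5 and 85.9 CPM in the pair labelled knockout (log2 fold change 0.30 with SE 0.28, adjusted p = 0.828 by edgeR). Its whole-gene count was thus not lower, and the exons between the loxP sites were not given, so the count does not check the deletion. Every direction below is that of libraries labelled knockout. In these, 7 of 14 tested markers of monocytes, macrophages and dendritic cells were called higher (median log2 fold change 2.46; summed level 1017 and 1170 CPM in the controls, against 3092 and 3683 CPM in the pair labelled knockout, with no marker at 0 in both libraries of a group). Of 10 tested T cell markers, Trac was called higher (7 higher and 0 lower with an unadjusted p below 0.05, 5 higher by DESeq2, median 1.47; summed level 2463 and 2430 against 2996 and 4137 CPM). Cd3g, Trbc1 and Trbc2 made up most of that sum. In the controls Cd3g was at 1468 and 1255 CPM and Trac at 7.31 and 5.67 CPM. The sum is thus not read as an amount of T cell RNA. Cd3e was at 26.5 and 15.1 against 152.4 and 370.8 CPM (adjusted p = 0.095 by edgeR, DESeq2 adjusted p = 3.93e-16). Itgax was a large part of the myeloid sum, at 479.3 and 492.1 against 509.9 and 538.0 CPM. The part of myeloid and T cells in the values below was not tested.

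The helper genes separated into a transcribed set of transcription factors plus Kit, and a set of cytokine receptors and products at or near 0. Gata3, Kit, Ahr and Rora passed the filter on low counts in the comparison, and the other 5 did not. Il1rl1 and Il17rb had at most 10 counts in any library, and Il23r, Il22 and Areg had 0 counts in all 4. Of the 21534 protein-coding genes in the table, 22.3% were likewise at 0 in all 4 libraries.

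**Figure D1:**
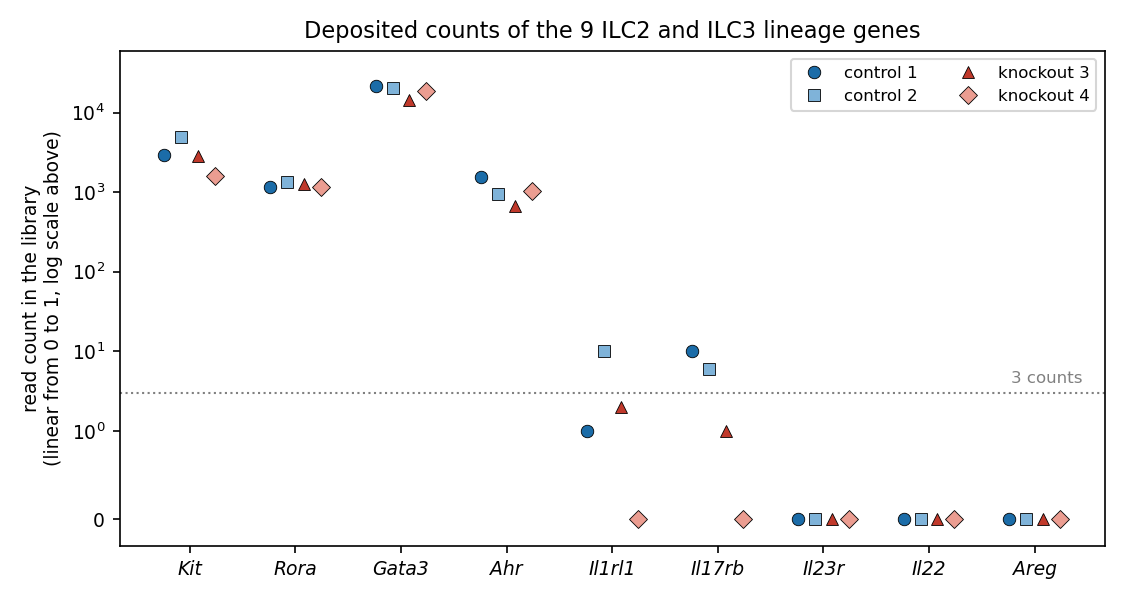
Deposited read counts (y axis, linear from 0 to 1 and logarithmic above) of the 9 ILC2 and ILC3 lineage genes (x axis) in each library, with the floor of 3 counts as a dotted line. Gata3, Kit, Rora and Ahr lie between 668 and 21519 counts, Il1rl1 and Il17rb between 0 and 10, and Il23r, Il22 and Areg at 0.

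Gata3 was the most abundant of these genes. It encodes the zinc-finger factor that all helper ILCs need for their development and that ILC2s keep at the highest level. The gene (ENSMUSG00000015619) lies on chromosome 2, 9857078 to 9890034, on the minus strand of mm10. It had 21519 and 20308 counts in the controls, against 14346 and 18449 counts in the pair labelled knockout. That was 370.9 and 429.6 CPM against 333.6 and 356.4 CPM, so both controls were above both libraries labelled knockout, by a margin smaller than the gap between the controls. Group means stood at 400.3 ± 41.5 and 345.0 ± 16.1 CPM (SD, n = 2 each). The fitted log2 fold change was -0.21 (SE 0.14, 95% interval -0.56 to 0.13, edgeR adjusted p = 0.727), short of the threshold of 0.05. Gata3 made up 73.6% to 83.0% of all counts over the 9 genes.

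Kit, the receptor tyrosine kinase for stem cell factor, which marks progenitors, mast cells, many ILC3s and some ILC2s, was the second most abundant per unit of length. The gene (ENSMUSG00000005672) lies on chromosome 5, 75574916 to 75656722, plus strand. Its counts were 2930 and 4985 in the controls, against 2820 and 1604 in the pair labelled knockout. In CPM the values were 50.5 and 105.5 against 65.6 and 31.0. Control library 2 was the highest and library 4 the lowest, and library 3 lay between the controls, so the groups overlapped. The controls differed from each other 2.09-fold and the libraries labelled knockout 2.12-fold. Group means stood at 78.0 ± 38.9 and 48.3 ± 24.5 CPM (SD, n = 2 each), and the fit gave a log2 fold change of -0.69 (SE 0.46, 95% interval -1.79 to 0.41, edgeR adjusted p = 0.724). The size rested on single libraries: it was -0.06 without control library 2, -0.27 without library 4, -1.13 without control library 1 and -1.34 without library 3. In bulk libraries, fewer cells that express Kit and less Kit RNA per cell cannot be told apart, and this holds for each gene below.

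Rora encodes the nuclear receptor RORα, on which ILC2 development depends in mice and which hepatocytes also express. The gene (ENSMUSG00000032238) spans 68653786 to 69388246 of chromosome 9, plus strand. Rora was counted 1163 and 1357 times in the controls, against 1260 and 1148 times in the pair labelled knockout. Its levels were 20.1 and 28.7 CPM against 29.3 and 22.2 CPM, with 1 library of each group low and 1 high. The means of 24.4 ± 6.13 and 25.7 ± 5.04 CPM (SD, n = 2 each) differed by less than the spread within either group. The log2 fold change was 0.08 (SE 0.30, 95% interval -0.64 to 0.79, edgeR adjusted p = 0.985), and its sign turned to -0.16 without control library 1 and -0.15 without library 3. Per unit of length, Rora stood at 0.144 to 0.214 times the level of Alb, the albumin gene of hepatocytes. The 12 hepatocyte markers summed to 196.7 and 124.8 CPM in the controls, against 194.9 and 211.7 CPM in the pair labelled knockout, none at 0 in any library, with Apoa2, Serpina1a, Alb and Cyp2e1 the highest per length. edgeR called 0 of the 12 (2 higher and 0 lower with an unadjusted p below 0.05, 1 higher by DESeq2, median log2 fold change 0.18). How many of the Rora reads come from hepatocyte RNA was not tested.

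Ahr encodes the aryl hydrocarbon receptor, a ligand-activated factor that sustains ILC3s and interleukin-22 production. The gene (ENSMUSG00000019256) lies on chromosome 12, 35497974 to 35535038, minus strand. Its counts were 1566 and 945 in the controls, against 668 and 1026 in the pair labelled knockout. These gave 26.99 and 19.99 CPM against 15.5 and 19.8 CPM. Control library 1 was the highest, and control library 2 and library 4 were almost level, so that the groups barely failed to overlap. The means were 23.5 ± 4.95 and 17.7 ± 3.03 CPM (SD, n = 2 each), which the fit put at a log2 fold change of -0.41 (SE 0.29, 95% interval -1.12 to 0.30, edgeR adjusted p = 0.752).

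None of the 4 tested genes was called at an edgeR adjusted p under 0.05, a threshold that 0.155% of the 14863 tested genes passed. At an unadjusted p under 0.05, which 9.65% of tested genes reached, the count among the 4 was also 0, and DESeq2 called 0 where it called 3.17% of genes with an adjusted p. The groups did not overlap for Gata3 and Ahr, 2 of the 4, against 40.2% of all tested genes. The fitted change was below 0 for 3 of the 4, with a median log2 fold change of -0.31, against 51.3% and a median of -0.01 over all tested genes.

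**Figure D2:**
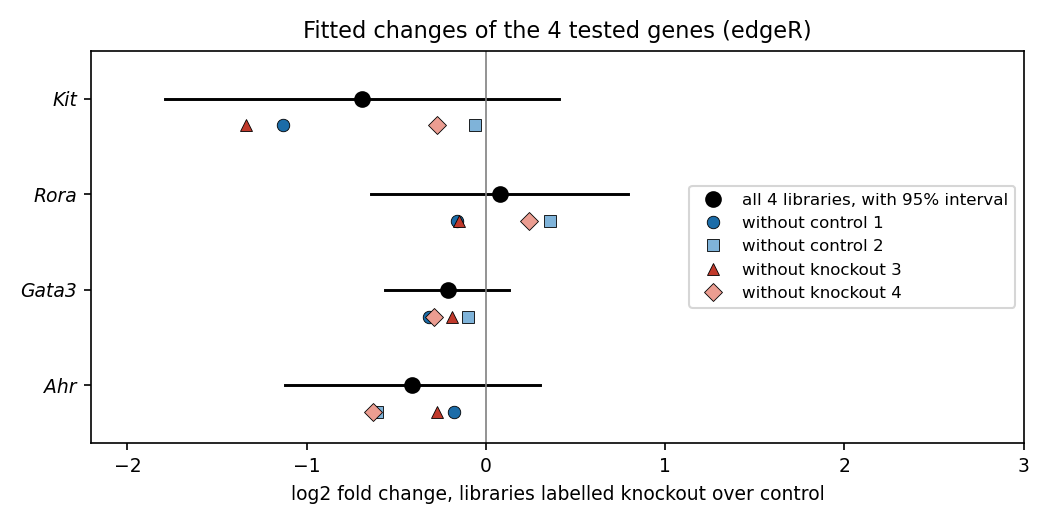
Log2 fold change (x axis, libraries labelled knockout over control, edgeR) of the 4 tested genes with the 95% interval (black) and the estimate after leaving out each library (coloured symbols). All 4 intervals include 0; the Kit estimate ranges from -1.34 to -0.06 and Rora from -0.16 to 0.36 when 1 library is left out.

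Levels of different genes were compared as TPM, in which counts are divided by the union length of a gene's annotated exons and then scaled to the same sum in each library. Gata3 had a mean of 227.2 TPM (range 200.3 to 267.0 over the 4 libraries), above 98.4% of the genes in the annotation. Kit followed at 17.3 TPM (7.84 to 29.3), Ahr at 8.13 TPM (6.02 to 11.2) and Rora at 4.64 TPM (3.83 to 5.43). The ranges of Kit and Ahr over the libraries overlapped, while those of Gata3 and Kit did not meet. Within each library, however, Kit was higher than Ahr, at 1.08 to 3.65 times its TPM, and this difference was not tested. Ahr was 1.12 to 2.86 times as high as Rora by union length, but with the mean length of annotated transcripts the order turned, to means of 9.545 TPM for Ahr and 10.4 TPM for Rora, with Ahr higher in 1 of the 4 libraries. The order of Ahr and Rora thus depends on the length used. Gata3 exceeded Tbx21 by 4.35 to 5.30 times in TPM, whereas Kit was at 0.177 to 0.517, Ahr at 0.142 to 0.204 and Rora at 0.0715 to 0.142 times the Tbx21 level.

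**Figure D3:**
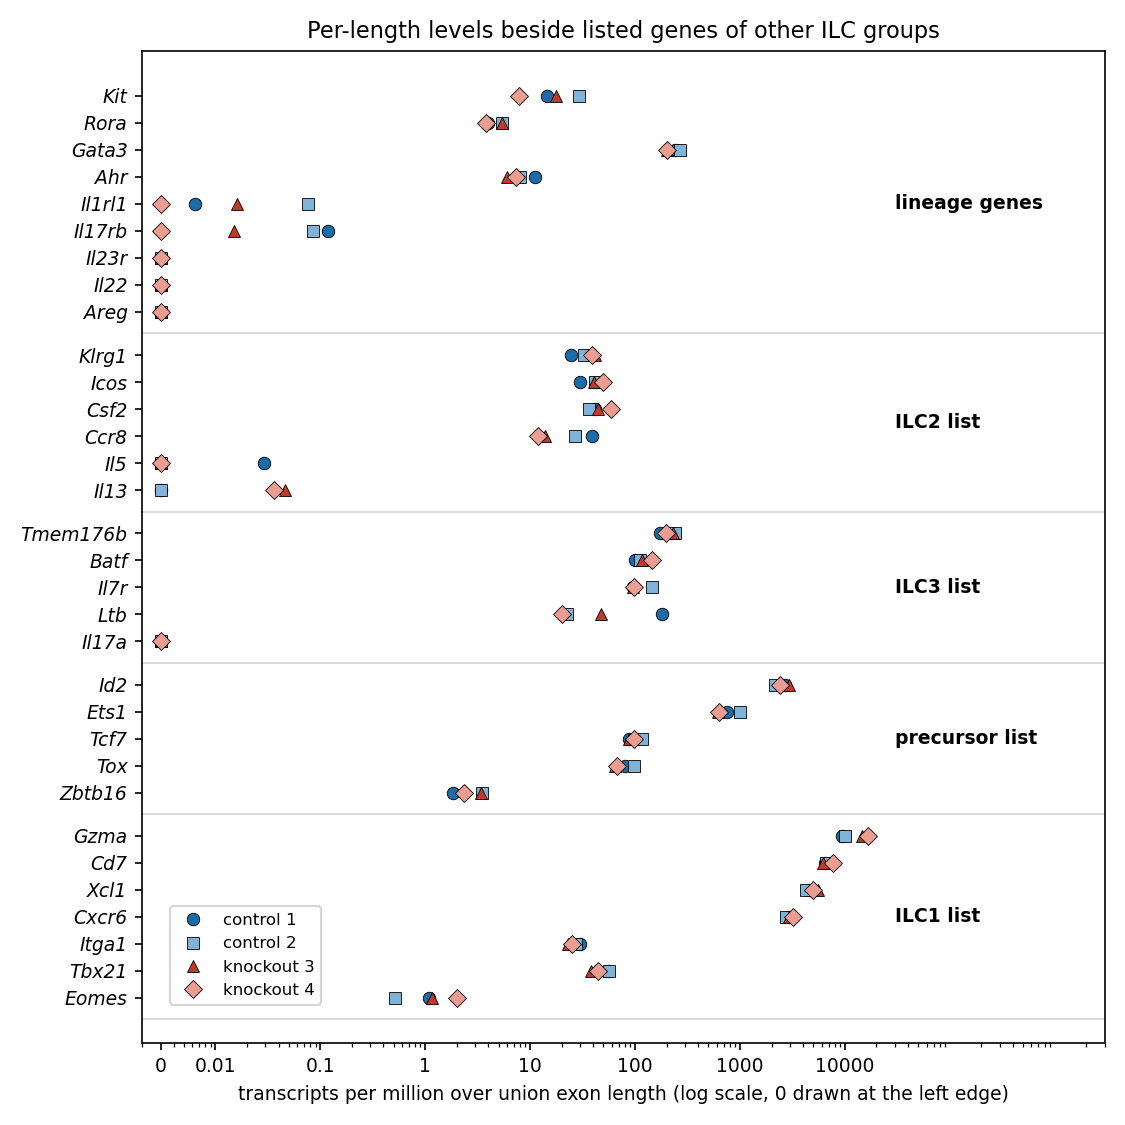
TPM per library (x axis, logarithmic, with 0 drawn at the left edge) of the 9 lineage genes and of selected genes from the ILC2, ILC3, precursor and ILC1 lists (y axis). Gata3 lies between 200.3 and 267.0 TPM, above Tbx21, while Kit, Ahr and Rora lie between 3.83 and 29.3 TPM and the 3 genes at 0 lie at the edge beside Il17a.

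Receptor genes for the ILC2-activating alarmins had at most 10 counts in any library, and were above the floor of 3 counts in control libraries alone. Il1rl1 (ENSMUSG00000026069, chromosome 1, 40429570 to 40465415) encodes ST2, the receptor for interleukin-33. It had 1 and 10 counts in the controls, against 2 and 0 counts in the pair labelled knockout, with 10 of its 13 reads in control library 2. Il17rb (ENSMUSG00000015966, chromosome 14, 29996135 to 30008896) encodes the ligand-specific chain of the interleukin-25 receptor. Its counts were 10 and 6 in the controls, against 1 and 0 in the pair labelled knockout, higher in both controls. Actr8, a chromatin remodelling gene with 3287 to 4642 counts per library, overlaps 141 exonic bases (3.8%) of Il17rb on the opposite strand, and without a stated strand setting the reads of the pair cannot be told apart there. Both receptor genes were below the filter; fitted without it, neither passed the threshold (edgeR adjusted p = 0.882 for Il1rl1 and 0.838 for Il17rb).

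The shared parts of these receptors were transcribed. Il17ra, the common chain of interleukin-17 family receptors, was at 23.3 to 25.1 CPM, and Il1rap, the partner of ST2, at 7.77 to 13.95 CPM. The adaptor gene Myd88 was at 77.9 and 91.5 CPM in the controls, against 113.7 and 124.5 CPM in the pair labelled knockout (log2 fold change 0.49 with SE 0.16, adjusted p = 0.422 by edgeR). Sigirr, a negative regulator of this receptor family, Tab2 and Irak2 were the next most abundant per length. edgeR called 0 of 12 tested genes of interleukin-33 and interleukin-25 receptor signalling (1 higher and 2 lower with an unadjusted p below 0.05, 0 by DESeq2, median 0.02). The ligand genes Il33 and Il25 had 0 counts in all 4 libraries.

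Il23r and Il22, which encode the ligand-specific chain of the interleukin-23 receptor and the ILC3 cytokine that acts on epithelium, had no counts. Il23r (ENSMUSG00000049093) lies on chromosome 6, 67422932 to 67491855, minus strand. None of its annotated 50-base windows occurs in a transcript of another gene, so its 0 allows up to 3 counts, or 0.0547 to 0.0708 CPM, per library. Il22 (ENSMUSG00000074695) lies on chromosome 10, 118204942 to 118210047, plus strand, near a second copy, Iltifb, at 118289629 to 118295038 on the minus strand. The spliced transcripts are 97.3% identical and their coding parts differ at 9 of 537 bases. Of the 50-base windows of Il22, 41.0% also occur in Iltifb, and reads in such windows may not have been counted for either gene. Iltifb had 1 count in control library 1 and 0 in the others, so the 0 of Il22 bears on the part of the transcript that differs from its copy. The stretch of coding sequence where the copies differ most, bases 118 to 217 of each (GENCODE M21, GRCm38, exons joined; chr10:118205108-118205600 plus strand for Il22 and chr10:118294380-118294872 minus strand for Iltifb), is shown because it marks how little sequence tells them apart. Capitals mark the 4 bases at which they differ.
Il22: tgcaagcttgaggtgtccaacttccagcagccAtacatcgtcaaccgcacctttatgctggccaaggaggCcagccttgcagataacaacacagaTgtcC
Iltifb: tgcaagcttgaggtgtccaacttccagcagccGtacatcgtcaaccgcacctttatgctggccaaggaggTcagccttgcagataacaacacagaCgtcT

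Of 10 other genes of that axis, 6 passed the filter, and Il23a, Il12b, Il22ra1 and Il22ra2, which encode ligand subunits, a receptor chain and a decoy receptor, had at most 9 counts in any library. Il12rb1, the receptor chain that interleukin-23 shares with interleukin-12, was at 83.4 and 94.1 CPM in the controls, against 93.2 and 97.9 CPM in the pair labelled knockout. The signal transducer genes Stat4 (199.1 to 223.6 CPM) and Stat3 (254.0 to 284.2 CPM) and the interleukin-22 receptor chain gene Il10rb (91.1 to 119.2 CPM) were the most abundant besides. edgeR called 0 of 6 tested genes of the interleukin-23 and interleukin-22 axis (0 higher and 2 lower with an unadjusted p below 0.05, 0 by DESeq2, median 0.09). The 2 lower ones were the Janus kinase genes Jak2 (log2 fold change -0.49, edgeR adjusted p = 0.51) and Tyk2 (-0.64, edgeR adjusted p = 0.494), named after their values were seen.

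Areg, the gene of amphiregulin, the ligand of the epidermal growth factor receptor that ILC2s release in tissue repair, had 0 counts in every library. The gene (ENSMUSG00000029378) lies on chromosome 5, 91139599 to 91148432, plus strand, and shares no 50-base window with another gene. A count of 0 allows up to 3 counts per library here too. Related ligand genes were low as well: Hbegf was at 7.03 and 7.05 CPM in the controls, against 4.14 and 2.57 CPM in the pair labelled knockout (log2 fold change -1.07 with SE 0.44, adjusted p = 0.519 by edgeR). The shedding protease genes Adam10 (184.3 to 219.5 CPM) and Adam17 (91.2 to 132.2 CPM) and the Adam17 cofactor gene Rhbdf2 (12.5 to 14.8 CPM) were transcribed. edgeR called 0 of 8 tested genes of this list, with 0 at an unadjusted p under 0.05, 0 by DESeq2 and a median of 0.01.

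Partners of Gata3, Kit and Ahr were read as lists. Among cofactors of GATA3, edgeR called 0 of 6 tested genes, with 0 at an unadjusted p under 0.05, 0 by DESeq2 and a median of -0.14; Fli1, Mta2, Chd4 and Ldb1 were the most abundant per length. For Kit, the ligand gene Kitl had 2 counts in control library 1 and 0 elsewhere. Of 10 tested genes listed for Kit signalling, 0 were called by edgeR, 0 at an unadjusted p under 0.05 and 0 by DESeq2 (median -0.03). Ptpn6, the phosphatase SHP-1 that restrains Kit, was at 312.0 and 428.8 CPM in the controls, against 391.3 and 477.6 CPM in the pair labelled knockout. Lyn, Shc1 and Lmo4 followed it per length. Lmo4 was counted as listed, and its part in Kit signalling was not checked.

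Targets by which Ahr activity is often read were low. Cyp1a1 had 0, 1, 1 and 0 counts in libraries 1 to 4, Cyp1b1 had 2, 0, 1 and 0, and Ahrr, the repressor gene, had 3 and 3 counts in controls, 35 in library 3 and 2 in library 4. Tiparp, another target, was at 5.45 and 3.43 CPM against 4.70 and 2.16 CPM (log2 fold change -0.37 with SE 0.57, adjusted p = 0.933 by edgeR). Cyp1a2, a target that hepatocytes express highly, had 46 and 28 counts in the controls, against 3 and 87 in the pair labelled knockout, and Nqo1 had 1, 0, 1 and 75 counts in libraries 1 to 4. These 6 were named after their values were seen. The dimerisation partner gene Arnt was at 60.2 and 62.5 CPM in the controls, against 53.0 and 42.3 CPM in the pair labelled knockout, and the chaperone genes Hsp90ab1 and Ptges3 were among the most abundant of the list. edgeR called 0 of 7 tested partners and targets, with 0 at an unadjusted p under 0.05, 0 by DESeq2 and a median of 0.22.

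Genes of the wider ILC2 and ILC3 programmes were unevenly present. Their shares lay near that of all protein-coding genes, of which 46.6% averaged at least 1 TPM. Of 21 further ILC2 genes, 11 averaged at least 1 TPM, led by Csf2 (45.2 TPM), a growth factor gene, Icos (40.5 TPM), a costimulatory receptor gene, Klrg1 (34.6 TPM), an inhibitory receptor gene, and the chemokine receptor gene Ccr8 (22.8 TPM). The type 2 cytokine genes Il5 and Il13 had at most 1 count in any library, whereas Il4 had 26 and 23 counts in the controls, against 6 and 71 counts in the pair labelled knockout (log2 fold change 0.69 with SE 1.27, adjusted p = 0.95 by edgeR). Klrg1 was at 13.6 and 18.8 CPM in the controls, against 24.56 and 24.59 CPM in the pair labelled knockout (log2 fold change 0.60 with SE 0.28, adjusted p = 0.566 by edgeR). Ccr8 was at 17.7 and 12.8 against 6.81 and 6.16 CPM (-1.23 with SE 0.34, adjusted p = 0.347 by edgeR, DESeq2 adjusted p = 0.027). edgeR called 0 of 13 tested ILC2 genes (3 higher and 2 lower with an unadjusted p below 0.05, median 0.53). DESeq2 called Ccr8 and Gfi1 lower and Nmur1 higher. Gfi1, a repressor gene of lymphoid development, was at 9.58 and 10.2 against 2.84 and 3.42 CPM (log2 fold change -1.66 with SE 0.38, adjusted p = 0.286 by edgeR, DESeq2 adjusted p = 0.00469). Nmur1, a neuropeptide receptor gene of ILC2s, had 0 and 1 counts in the controls, against 27 and 66 counts in the pair labelled knockout (edgeR adjusted p = 0.323, DESeq2 adjusted p = 0.0375). Gfi1, Nmur1 and the cytokine genes were named after their values were seen, and the summed levels of myeloid and T cell markers, given above, were also higher in libraries 3 and 4.

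Of 18 further ILC3 genes, 8 averaged at least 1 TPM, against 46.6% of all protein-coding genes. The highest were Tmem176b (209.3 TPM), a cation channel gene, Batf (118.0 TPM), a transcription factor gene, Il7r (108.2 TPM), the interleukin-7 receptor chain shared by helper ILCs, and Ltb (67.9 TPM), the lymphotoxin beta gene. Il7r was at 174.2 and 272.0 CPM in the controls, against 185.0 and 202.5 CPM in the pair labelled knockout (log2 fold change -0.20 with SE 0.23, adjusted p = 0.882 by edgeR). Ltb stood apart in control library 1, at 107.4 CPM against 13.9 in control library 2 and 29.8 and 13.5 in the libraries labelled knockout. Il17a had 0 counts in all 4. edgeR called 0 of 12 tested ILC3 genes (2 higher and 0 lower with an unadjusted p below 0.05, median 0.35), and DESeq2 called Nrp1, a semaphorin receptor gene named after its values were seen, at 1.05 and 1.31 against 5.93 and 3.40 CPM (log2 fold change 1.98 with SE 0.59, adjusted p = 0.38 by edgeR, DESeq2 adjusted p = 0.0464).

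Of 11 factors of ILC precursors, 8 averaged at least 1 TPM, against 46.6% of all protein-coding genes. The highest were Id2 at 2546 TPM, Ets1 at 749.6 TPM, Tcf7 at 97.7 TPM and Tox at 77.6 TPM. Zbtb16, which encodes PLZF, a factor that marks ILC precursors, was at 2.78 TPM, Gata1 and Gata2 had at most 6 counts in any library and Rorb had 0. These last 4 were named after their values were seen. Gata3 stood at 0.0677 to 0.124 times Id2 per length. edgeR called 0 of 8 tested precursor factors (1 higher and 0 lower with an unadjusted p below 0.05, 0 by DESeq2, median 0.07). Of 15 ILC1 identity genes, led by Gzma, Cd7, Xcl1 and Cxcr6, edgeR called 0 (3 higher and 1 lower with an unadjusted p below 0.05, 2 higher and 1 lower by DESeq2, median 0.10). The DESeq2 calls were Gzma and Ifng, the interferon-gamma gene, higher and Ncr1 lower. Ifng was named after its values were seen.

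**Figure D4:**
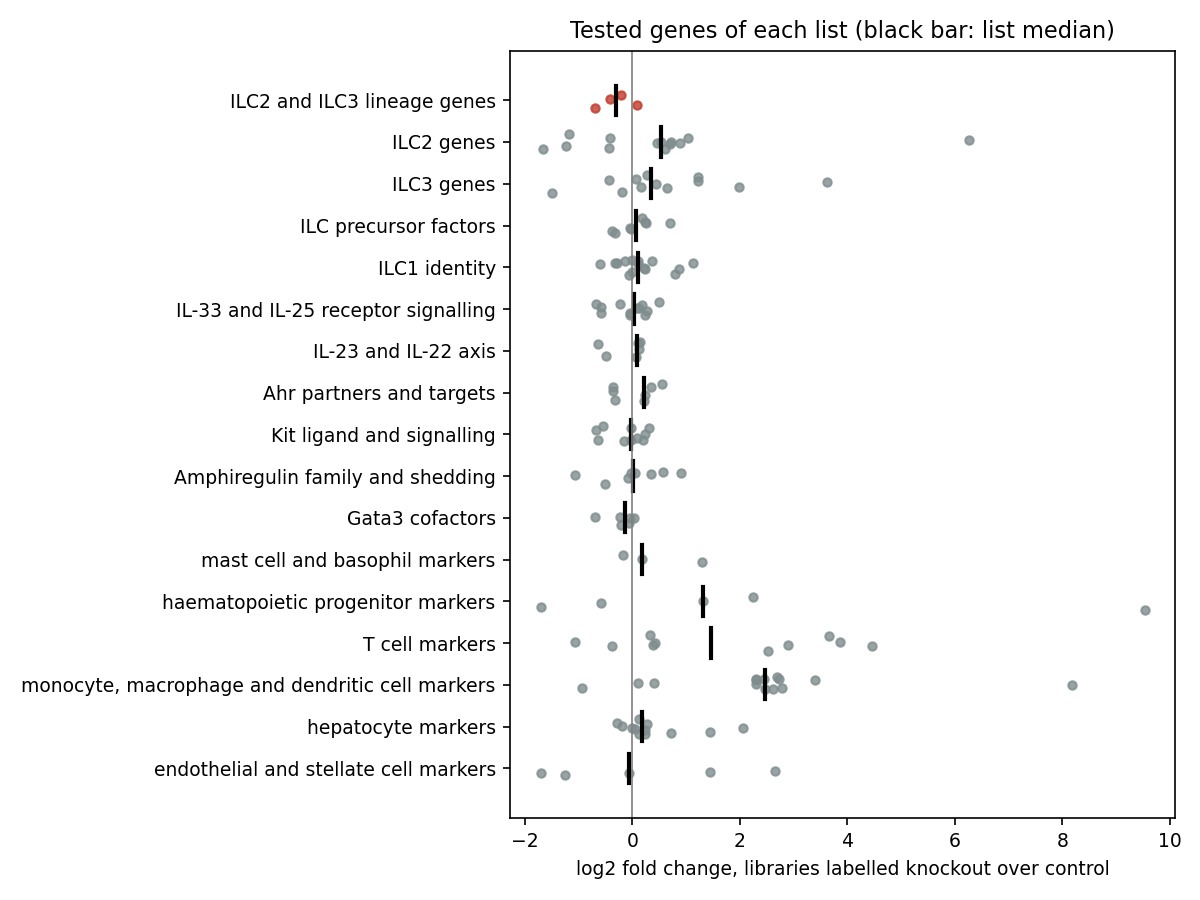
Log2 fold change (x axis, libraries labelled knockout over control) of every tested gene in each list (y axis), with the list median as a black bar. The 4 tested lineage genes (red) lie between -0.69 and 0.08, while the median of the monocyte, macrophage and dendritic cell markers lies at 2.46 and that of the T cell markers at 1.47. The 3 points past 6 are Cd34, Fcgr1 and Nmur1, with at most 1 count in a control library, whose fitted size depends on the prior count.

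Markers of other cells, among them those known for Kit or ST2, were also read, and their part in the counts of the lineage genes was not tested. The 11 mast cell and basophil markers summed to 8.96 and 5.23 CPM in the controls, against 6.35 and 10.1 CPM in the pair labelled knockout. Fcer1a, the alpha chain of the high-affinity immunoglobulin E receptor, was at 0 in all 4, and 4, 7, 5 and 6 of the 11 markers were at 0 in libraries 1 to 4. Cpa3, a mast cell protease gene, was at 2.81 to 6.49 CPM. Mcpt8, Hdc and Cma1 followed per length, Cma1 with 25 counts in library 4 and 0 in the others. edgeR called 0 of 3 tested (0 at an unadjusted p under 0.05, 0 by DESeq2, median 0.17). The 9 haematopoietic progenitor markers summed to 8.95 and 9.39 CPM in the controls, against 29.4 and 39.3 CPM in the pair labelled knockout, led by Ly6a, a gene that lymphocytes also express, at 4.64 and 8.02 against 24.1 and 36.1 CPM (DESeq2 adjusted p = 1.64e-06, edgeR adjusted p = 0.182). Cd34 had 0 counts in both controls and 70 and 108 counts in libraries 3 and 4 (DESeq2 adjusted p = 7.96e-05, edgeR adjusted p = 0.187). Flt3 had at most 13 counts and Mpo at most 1. edgeR called 0 of 5 tested progenitor markers (2 higher and 0 lower with an unadjusted p below 0.05, median 1.32), and DESeq2 called 2 of them higher. Hlf and Meis1, the other progenitor genes among the highest per length, were below 3 CPM in each library. The 10 endothelial and stellate cell markers summed to 58.6 and 82.6 against 66.6 and 70.5 CPM, nearly all of it Pecam1 (55.97 to 81.1 CPM). Kdr was at 1 count or less, while Clec4g had 9 to 40 counts per library, Rgs5 0 to 37 and Lrat 0 to 75. edgeR called 0 of 5 tested (0 at an unadjusted p under 0.05, 0 by DESeq2, median -0.06).

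Genes whose pattern over the 4 libraries was most like Kit and Rora were found by the root mean square difference of centred log2 CPM, among 7696 other genes of at least 10 CPM. Nearest to Kit were Snx27 (0.117), a sorting nexin gene, Topbp1 (0.134), a DNA damage response gene, and 4632427E13Rik (0.168). Snx27 was at 15.3, 27.8, 15.95 and 8.13 CPM in libraries 1 to 4. Nearest to Rora were Gnptab (0.006), a gene of lysosomal enzyme sorting, Acbd5 (0.018), a peroxisomal protein gene, and Slfn10-ps (0.022), a pseudogene of the Schlafen family. Each likeness rests on 4 values per gene.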

How the data were processed

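Per the labels' protocols, total RNA of the 4 ILC1 samples went through a SMARTer low-input kit and NovaSeq sequencing. The authors deposited raw read counts per gene, 1 column per library. Columns were matched to samples by the library number 1 to 4 that names and titles share; the names also number the knockout columns 1 and 2. The submitters' processing notes name STAR, featureCounts, Subread, DESeq2 and bcl2fastq with mm10, and what each did, the annotation and the strand setting are not given in the sources used here. Identical repeated lines (276 of 40757) were dropped, and no per-sample column was unused. Positions and exon lengths came from GENCODE M21 (GRCm38). Replicates differed far beyond sampling noise (chi-square per degree of freedom 98.6 in controls and 89.6 in the other group), so each library counted once.

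Genes passing filterByExpr were scaled by TMM and tested with edgeR 4.0.16 (robust quasi-likelihood, two-sided, genotype as sole term, 2 residual degrees of freedom) in R 4.3.3, with Benjamini-Hochberg adjustment over 14863 genes. The edgeR step was tested on simulated data. Alternatives were other scalings and filters, DESeq2 1.42.0, limma-voom (3.58.1), non-robust edgeR, leaving out each library, and a replicate block. The members and lists were chosen with earlier results of these data known. Named genes were the 9 members, up to 4 genes per list with the highest mean TPM, any list gene past the threshold, 13 fixed genes, and the 3 genes nearest in pattern to Kit and to Rora. Some names fall outside this rule and are said to be so where given, while these were chosen after their values were seen to show a presence or absence: Fcer1a, Kdr, Flt3, Mpo, Kitl, Il33, Il25 and Il17a, and the receptor chains Il17ra and Il1rap. Trdc, a T cell marker listed, had no line. Floors cover counting error only, since PCR copies of 1 molecule cannot be recognised without molecular identifiers. A few listed genes are not reported here.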

Additional observations from a re-analysis of the deposited data

How the results depend on the processing

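Of the 13 alternatives, those that kept all 4 libraries called 0 of the lineage genes they could test. Each took in Gata3, Kit, Ahr and Rora, with adjusted p-values from 0.074 (Kit, edgeR with no filter on low counts) to 0.991 (Rora, DESeq2 and edgeR with plain library totals). The edgeR fit without a filter and DESeq2 also took in Il1rl1 and Il17rb, to which DESeq2 gave no adjusted p. Il23r, Il22 and Areg were in none. Kit, Gata3 and Ahr kept a negative sign in all 13, at -1.34 to -0.06, -0.32 to -0.10 and -0.63 to -0.18. Rora turned to -0.16 without control library 1 and -0.15 without library 3, within a range of -0.16 to 0.36 over the libraries left out; the cause was not tested beyond the smaller number of libraries. Over all genes, 21 were higher and 2 lower. No filter gave 299 and 264, the filter of 50 counts in 2 libraries 40 and 9, DESeq2 278 and 203, and plain library totals 6 lower. Leaving out 1 library gave 0 to 18 higher and 0 to 2 lower, with 0 higher without library 4, 1 without control library 1 or without control library 2, and 18 without library 3. Of the listed genes 8 were called higher and 0 lower. No filter gave 22 and 4, the filter of 50 counts 13 higher, DESeq2 23 and 3, and leaving out 1 library gave 0 to 9 higher. The cause of these shifts was not tested. Dividing by mean transcript length in place of union exon length gave 471.3 TPM for Gata3, 30.9 for Kit, 10.4 for Rora and 9.545 for Ahr, which turned the order of Ahr and Rora. The labels number the libraries 1 to 4, but the table's column names also number them 1 and 2 within each group. With these as a replicate block, an alternative chosen after seeing the data that leaves 1 residual degree of freedom, edgeR called 0 genes, the listed ones included, and DESeq2 was not run with it; 1709 genes had an unadjusted p below 0.05. Same-numbered libraries deviated together with a correlation of 0.14 over 14863 genes, and no source says that the numbers pair them. The genes at 0 are limited by the floor of 3 counts.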
